A study of Mus musculus with 8 samples.

Results

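The regions described here, called CpG-poor and fully methylated, are windows of 1000 bp laid end to end along mouse chromosomes 1 to 19. CpG-poor here means few measured positions and CpG-dense means 20 or more of them. The CpG density of the sequence itself was not measured. A window was a member when it held 3 to 5 CpG positions with at least 10 reads in all 8 libraries. In addition, the median methylation level over these positions had to be 95% or more in the library of the ischemia sham kidney. Of 93730 windows of the series, 18125 were members, which is 33.6% of the 53982 autosomal windows with 3 to 5 measured positions. Among the members, 9767 held 3 positions, 5227 held 4 and 3131 held 5. The members were thus chosen by the methylation values of the ischemia sham, which are given as a description without a test, and so are differences from that library.

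Reduced representation bisulfite sequencing (RRBS) was used, which reads short MspI fragments (cut at CCGG) after bisulfite has turned unmethylated cytosines into bases read as thymine. Kidney cortex with outer medulla was taken from wild-type male C57BL/6J mice. In the group UUO+5AZA the left ureter was tied and cut (unilateral ureteral obstruction, UUO, sampled at 7 days) and 5AZA was injected intraperitoneally at 1 mg per kg per day, with 2 libraries. The group UUO had the obstruction alone, with 2 libraries, and the UUO sham was a sham-operated kidney of the same series, with 1 library. The ischemia groups had both renal pedicles clamped for 25 minutes, followed by 1 month or 1 week of reperfusion, with 1 library each, and their own sham, also with 1 library. Whether both libraries of a pair stem from different mice is not in the labels, nor is what the UUO mice were injected with. P-values of group means measure only the spread between these libraries. P-values of single windows also rest on read counts and on a dispersion moderated over all windows. All DNA was taken from whole tissue, so a change in the mixture of cells and a change within cells cannot be told apart. The libraries held 57853745 to 86411736 reads over CpG positions, and the median member window had 142 to 201 reads per library, summed over its positions.

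Most CpG sites of mammalian genomes lie in CpG-poor DNA and are methylated by default, whereas CpG islands at promoters mostly escape methylation. After each round of DNA replication the maintenance enzyme DNMT1 copies the mark to the new strand, and the de novo enzymes DNMT3A and DNMT3B add it at new sites. The azanucleoside inhibitors abbreviated in this way are built into nucleic acid and trap these enzymes on it, so that methylation is lost as cells divide. Fully methylated windows are therefore the part of the genome where a loss has the most room to be seen and a gain has almost none.

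The members were compact and stood apart from windows with many measured positions. Their measured positions spanned a median of 123 bp, and 93.0% of members had all of them within less than 250 bp, close to the length of 1 sequenced fragment. The nearest window with 20 or more measured positions lay at a median distance of 74 kb. That distance was 58 kb for windows with 3 to 5 measured positions at 70 to under 95% in the ischemia sham, and 13.5 kb for those under 30%. Within 5 kb of such a dense window lay 4.88% of members, 7.51% of the windows at 70 to under 95% and 41.9% of those under 30%. Members made up between 30.5% (chromosome 11) and 38.1% (chromosome 3) of the CpG-poor windows of each autosome, and 5.16% of members had another member directly beside them.

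A CpG position was counted as a fragment edge by its change in read depth to the neighbours within 250 bp. The absolute changes of the single libraries were summed and had to exceed 10% of the larger of both summed depths. A position without a neighbour within 250 bp on at least 1 side was an edge too. Of the 65864 member positions, 71.9% were edges by this rule and 18515 were interior. The labels' protocol repairs fragment ends with methylated dCTP, and edges read as partly methylated where the interior of the same windows did not. In 3077 CpG-poor windows with an interior level under 10% in the ischemia sham, the median edge position was at 71.4% and 72.1% in the UUO+5AZA libraries, 73.1% in both UUO libraries and 71.5% in the UUO sham. The median interior position of the same windows was at 2.38% in both UUO+5AZA libraries, 2.70% and 3.03% in the UUO libraries and 2.22% in the UUO sham. These windows were chosen for a low interior, and only 1 of them was a member. Their mean edge position was lower than the median one, at 59.6% and 59.7% in UUO+5AZA, 61.4% in both UUO libraries and 59.7% in the UUO sham. In these windows, edge positions thus kept a high level where the interior was nearly unmethylated. Every level given over all positions of a member mixes both kinds where a member holds both. The part of end repair in the members' levels was not tested.

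The name fully methylated held inside fragments for most members that could be checked. In 12275 members with at least 1 interior position, the median interior level in the UUO sham, a library the rule did not use, was 93.3%. In the ischemia sham, which chose the members, the median interior level was 94.6%, so both medians lay below 95%. The further values are of the UUO sham. It was 90% or more in 70.1% of them and under 50% in 76 members, or 0.619%. The other 5850 members held edge positions alone, so their level inside fragments was not measured.

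Over the members, methylation was lower in both UUO+5AZA libraries than in every other library. The mean level over members was 91.68% and 90.61% in the UUO+5AZA libraries, 94.52% and 94.66% in the UUO libraries and 94.53% in the UUO sham. It was 94.13% in the ischemia kidney at 1 month, 93.75% at 1 week and 95.33% in the ischemia sham, whose values chose the members. The second UUO+5AZA library was 1.07 points below the first, while UUO 1 minus UUO 2 was -0.145 points. Few members were left at a nearly complete level with 5AZA. A level of 99% or more was reached by 1.11% and 0.739% of members in the UUO+5AZA libraries, 4.96% and 5.20% in the UUO libraries and 4.49% in the UUO sham.

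**Figure D1:**
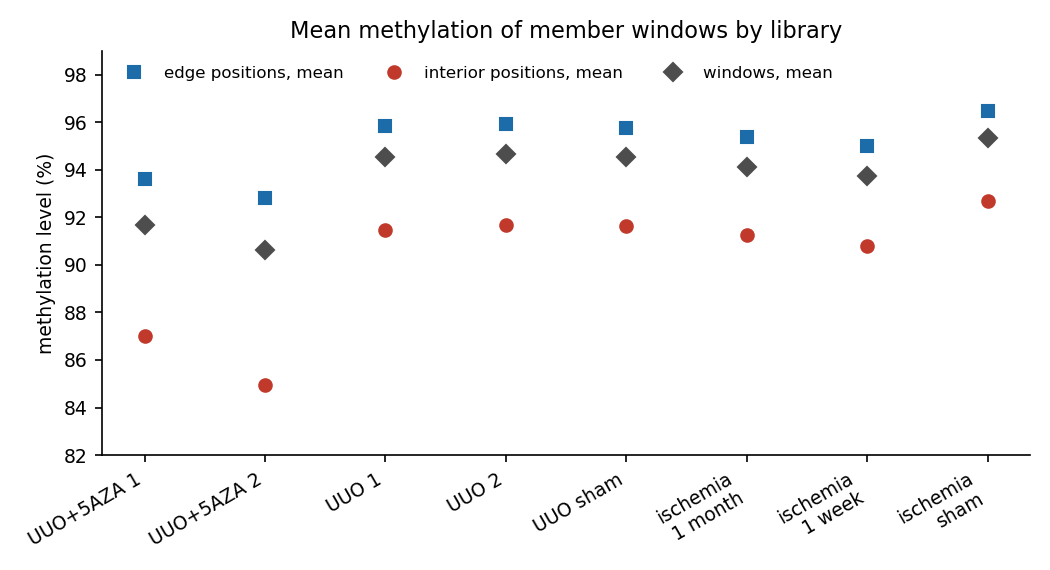
Mean methylation level in percent by library, over member windows (grey diamonds), over edge positions (blue squares) and over interior positions (red circles) of members. The axis starts at 82%; the 2 UUO+5AZA libraries are the lowest for windows and for both kinds of position, with interior means of 87.02% and 84.95%.

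The chief comparison asked how evenly 5AZA lowered methylation across these windows in obstructed kidneys. The mean over members was 91.14% ± 0.75 (SD, n = 2) in UUO+5AZA and 94.59% ± 0.10 (SD, n = 2) in UUO, a difference of -3.44 points. Both UUO+5AZA libraries lay below both UUO libraries, and the two-sided exact permutation test gave p = 0.33, the smallest that 2 against 2 libraries allow. The share of unmethylated reads per window, the complement of the level, averaged 8.32% and 9.39% in UUO+5AZA, against 5.48% and 5.34% in UUO, a ratio of 1.64. The difference was below 0 on each of the 19 autosomes, between -3.77 points on chromosome 3 and -3.23 points on chromosome 13. The autosomes come from the same libraries and are not replicates.

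Window by window, the loss was common and mostly small. The median difference over members was -3.23 points, and 90% of members lay between -8.72 and 1.04 points. All 4 comparisons of a UUO+5AZA with a UUO library were below 0 in 10742 members, or 59.3%, against 49.2% of all windows of the series. They were all above 0 in 344 members, or 1.90%, against 5.61% of all windows. A difference of 10 points or more downward was seen in 492 members, or 2.71%, and 10 members differed by 20 points or more. At the other end, 2467 members, or 13.6%, lay within 1 point of no difference.

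Set against the spread between libraries of 1 group, the losses of single windows were spread only a little more widely. The SD of the difference over members was 3.07 points. The spread within the UUO+5AZA pair and within the UUO pair together gives an SD of 2.78 points for windows that share 1 common loss, and read counting alone gives 2.32 points. The covariance between the first numbered pair of libraries (UUO+5AZA 1 minus UUO 1) and the second (UUO+5AZA 2 minus UUO 2), which have no library in common, put the SD of the loss that both pairs shared at 1.34 points, 0.389 of the mean loss. Their correlation across the 18125 members was r = 0.106, and r = 0.0941 with the pairs crossed, where the shared SD was 1.27 points. These are descriptions across windows, which are not independent replicates and share libraries and depth.

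**Figure D2:**
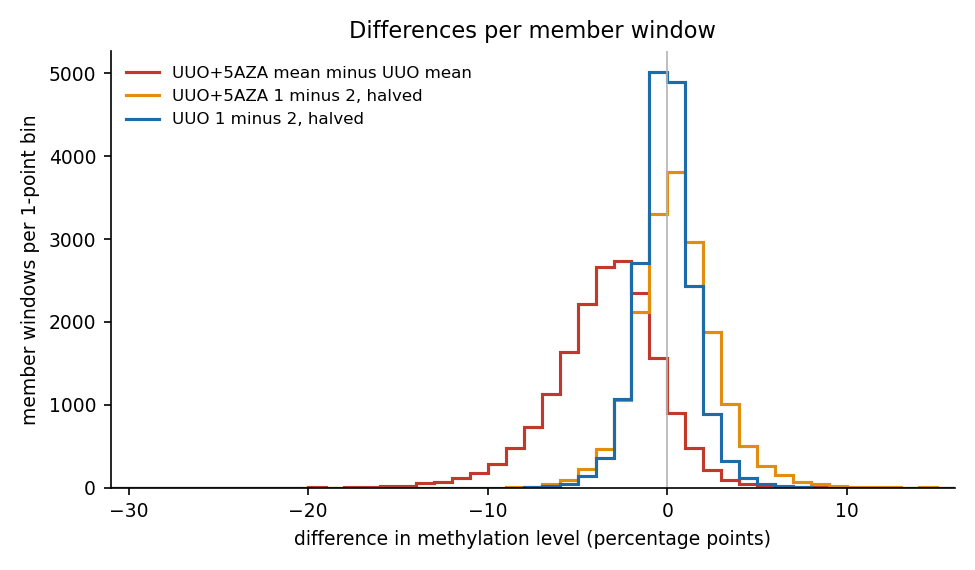
Number of member windows in 1-point bins of the difference in methylation level, in percentage points, for the UUO+5AZA mean minus the UUO mean (red), for UUO+5AZA 1 minus 2 divided by 2 (orange) and for UUO 1 minus 2 divided by 2 (blue). The red distribution is shifted to a median of -3.23 points, and its SD of 3.07 points compares with 2.29 points for the orange and 1.58 points for the blue one.

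Windows ranked by 1 pair of libraries differed much less in the other pair. The quintile of members with the largest fall in the first pair, 3625 windows at -8.26 points there, was at -4.80 points in the second pair. The quintile with the smallest fall or a rise in the first pair, at 2.24 points, was at -3.60 points in the second. Ranked in the second pair, the extreme quintiles were at -3.50 and -2.52 points in the first. In either direction, all 5 quintiles were below 0 in the pair that had not ranked them. The gap between extreme quintiles was therefore 10.5 points in the ranking pair and 1.20 points in the other, or 11.8 and 0.98 points the other way round.

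**Figure D3:**
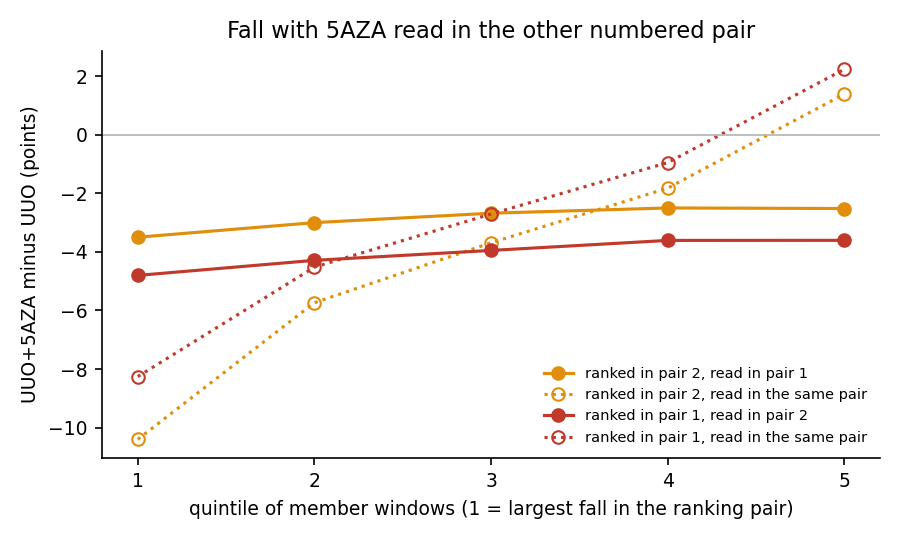
Mean difference of UUO+5AZA minus UUO in percentage points over quintiles of the members, ranked by 1 numbered pair of libraries and read in the other (filled points, solid lines) or in the ranking pair itself (open points, dotted lines). The filled points run from -4.80 to -3.60 points in pair 2 and from -3.50 to -2.52 points in pair 1, all below 0.

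In points, the level read at interior positions of a member fell more than the level read at its edges. The part of end repair in this difference was not tested. In the 12275 members that held both kinds, interior positions averaged 85.32% ± 1.46 (SD, n = 2) in UUO+5AZA and 91.05% ± 0.17 (SD, n = 2) in UUO, a difference of -5.73 points. Edge positions of the same windows averaged 94.83% ± 0.47 (SD, n = 2) in UUO+5AZA and 96.92% ± 0.01 (SD, n = 2) in UUO, a difference of -2.10 points. The difference between both kinds, interior minus edge, was -8.81 and -10.21 points in the UUO+5AZA libraries, against -5.99 and -5.77 points in the UUO libraries. The change of this gap with 5AZA was -3.63 points, with no overlap between the groups and p = 0.33 in the two-sided exact permutation test, again the smallest possible. Expressed as a ratio of unmethylated shares, UUO+5AZA over UUO, both kinds were nearly alike, at 1.64 for interior and 1.68 for edge positions.

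In points, interior positions also lost more within each class of level. Positions were classed by their level in 3 libraries outside the contrast and outside the rule, the UUO sham and both ischemia kidneys, with reads summed. At 98% or more, 1203 interior positions were at 91.95% in UUO+5AZA and 96.49% in UUO, a difference of -4.55 points. The 16085 edge positions of that class were at 96.80% in UUO+5AZA and 98.29% in UUO, a difference of -1.49 points. At 90 to 95%, the differences were -5.62 points for 6830 interior and -3.92 points for 9183 edge positions, and under 80% they were -7.07 points for 1389 interior and -5.94 points for 1095 edge positions. In points, the fall was larger the lower the outside level, while the ratio of unmethylated shares ran the other way, between 1.27 under 80% and 2.30 at 98% or more for interior positions and between 1.23 and 1.87 for edge positions. Within each class the ratio too was larger at interior positions, whereas in the mean over members with both kinds it was not. The classes do not match the level in UUO itself. In the class at 98% or more, UUO was at 96.49% for interior and 98.29% for edge positions. Under 80% it was at 73.77% and 73.78%. The part of this difference in level in the gap was not tested.

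**Figure D4:**
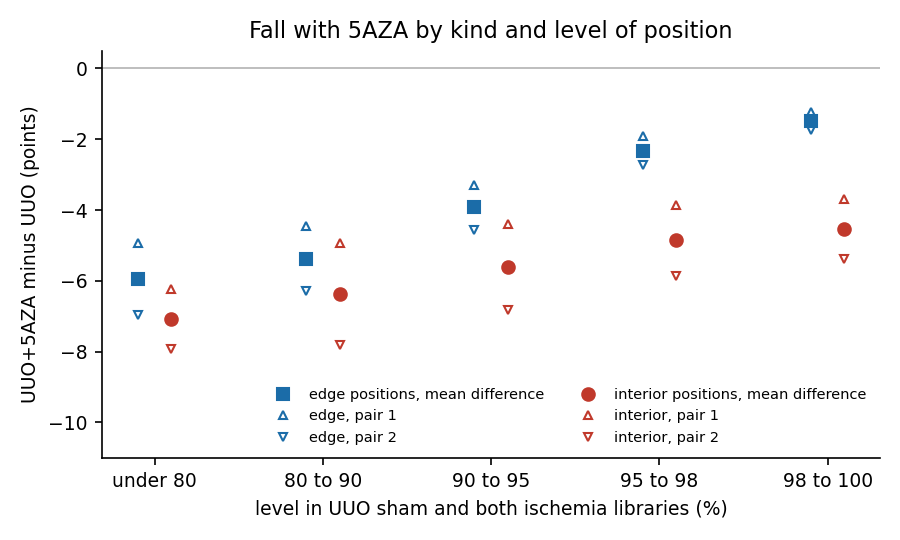
Difference of UUO+5AZA minus UUO in percentage points for edge (blue) and interior (red) positions of members, by class of level in the UUO sham and both ischemia libraries. Filled symbols are means and open triangles the 2 numbered pairs; interior means lie below edge means in each of the 5 classes, at -4.55 against -1.49 points in the highest.

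Other features of the members went with small differences in the loss. By number of positions, the difference was -3.34 points for 3, -3.55 for 4 and -3.61 for 5, while the SDs of the UUO+5AZA pair were 0.68 to 0.86 points. Members without an interior position differed by -3.26 points and those with 3 interior positions by -3.94 points. By span of the measured positions, it was -3.79 points under 50 bp and -2.56 points at 250 bp or more, the widest range among these features. By quartiles of total read depth the values lay between -3.60 points in the shallowest and -3.36 points in the deepest quartile. Distance to a CpG-dense window made little difference beyond the closest class, with -4.11 points in 111 members within 1 kb and -3.54 points in 7712 members beyond 100 kb. None of these differences between classes was tested.

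Neighbouring members did not lose alike to a degree that these libraries show. The difference of the first pair in 1 member and of the second pair in another correlated at r = 0.00469 over 473 pairs of adjacent members, r = 0.0168 over 1105 pairs 2 to 5 kb apart and r = 0.0209 over 3614 pairs 6 to 20 kb apart. The value within the same member was r = 0.106. Even inside a member, both pairs of libraries correlated more at the same position than between different positions. The levels of single positions were not removed for this, and their part in it was not tested. After the means of edge and interior positions were removed, both pairs correlated at r = 0.106 over the same 65864 positions and at r = 0.0209 over 91973 pairs of different positions of 1 member. Such correlations are weak and are given as descriptions.

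In the test over all windows, few members passed on their own. By the moderated quasi-binomial model with limma, 14 of 18125 members, or 0.0772%, were called lower in UUO+5AZA than in UUO (adjusted p below 0.05 and 10 points or more), against 0.356% of all 93730 windows. No member was called higher, against 0.00427% of all windows. The minimum of 10 points lies far beyond the mean loss of members, and the median SE of a member's difference was 2.29 points. At an unadjusted p below 0.05, 4725 members were lower, or 26.1%, against 23.3% of all windows, and 12 were higher, or 0.0662%, against 0.9% of all windows. The number of calls rested on single libraries. Without UUO+5AZA 1, 172 members were called lower, or 0.949%, against 1.33% of all windows, and 10 of the 14 passed. Without UUO+5AZA 2 the count was 1, against 0.105% of all windows. It was 0 without UUO 1, against 0.0203% of all windows, and 0 without UUO 2, against 0.128%. At an unadjusted p below 0.05, 2919 members were lower without UUO 1, or 16.1%, against 15.8% of all windows, and 3043 without UUO 2, or 16.8%, against 17.5%. None of the 14 passed in these 3 fits. EdgeR called 5 members lower, or 0.0276%, against 0.0523% of all windows. Limma on log2 ratios called 0 members and 0 of all windows, while at an unadjusted p below 0.05 it had 6172 members lower, or 34.1%, against 22.1% of all windows.

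The 14 windows lay on 9 autosomes, and in each both UUO+5AZA libraries were also below the UUO sham. With edge positions left out no call was left, in members or over all windows: 6 of the 14 held edges alone, and the interior of the other 8 had adjusted p between 0.128 and 0.253 in the same limma-moderated model. Coordinates are in build mm9. The window on chromosome 4 from 145167001 to 145168000, with 3 positions, had levels of 72.6% and 73.3% in UUO+5AZA, against 93.8% and 93.7% in UUO and 81.3% in the UUO sham. Its difference of -20.78 points (SE 4.0, adjusted p = 0.0457) was the largest of the 14. Its shallowest library had 30 reads summed over the 3 positions, where a read covering several positions counts at each. The window on chromosome 1 from 40682001 to 40683000 was at 73.6% and 76.0% in UUO+5AZA, 95.5% and 93.0% in UUO and 88.1% in the UUO sham, and UUO+5AZA minus UUO was -19.43 points (SE 3.49, adjusted p = 0.0499). With reads summed, this window was at 80.6% in ischemia at 1 month, 82.1% at 1 week and 84.4% in the ischemia sham, although the median position of that sham met the rule. Its 1 interior position was at 47.6% and 44.2% in UUO+5AZA, 86.8% and 79.2% in UUO, 66.7% in the UUO sham and 59.2% in the ischemia sham. By that position the window was not fully methylated inside its fragment in either sham.

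The next 3 windows had a UUO sham level close to that of UUO. On chromosome 1 from 149941001 to 149942000, with 5 positions, levels were 76.8% and 78.0% in UUO+5AZA, 93.5% and 97.0% in UUO and 97.3% in the UUO sham. On chromosome 7 from 67723001 to 67724000 they were 78.3% and 78.8% in UUO+5AZA, 95.8% and 92.9% in UUO and 96.1% in the UUO sham. On chromosome 5 from 145986001 to 145987000 they were 80.5% and 80.6% in UUO+5AZA, 94.8% and 96.7% in UUO and 98.1% in the UUO sham. In these 3 windows no library of UUO+5AZA reached the lowest of the other groups, and the differences were -17.83, -15.79 and -15.19 points. The next 5 falls, between -13.19 and -12.09 points, were on chromosome 10 from 99934001 to 99935000, chromosome 11 from 113337001 to 113338000, chromosome 10 from 66643001 to 66644000, chromosome 15 from 96997001 to 96998000 and chromosome 8 from 86281001 to 86282000. The other 4 lay between -11.96 and -10.22 points. In the window on chromosome 10 from 66643001 the UUO sham was nearer to UUO+5AZA than to UUO, with 83.5% and 83.2% in UUO+5AZA, 95.7% and 96.4% in UUO and 88.5% in the UUO sham. The same held for the largest fall, on chromosome 4 from 145167001. There UUO+5AZA minus the UUO sham was -8.37 points and UUO minus that sham was 12.41 points.

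**Figure D5:**
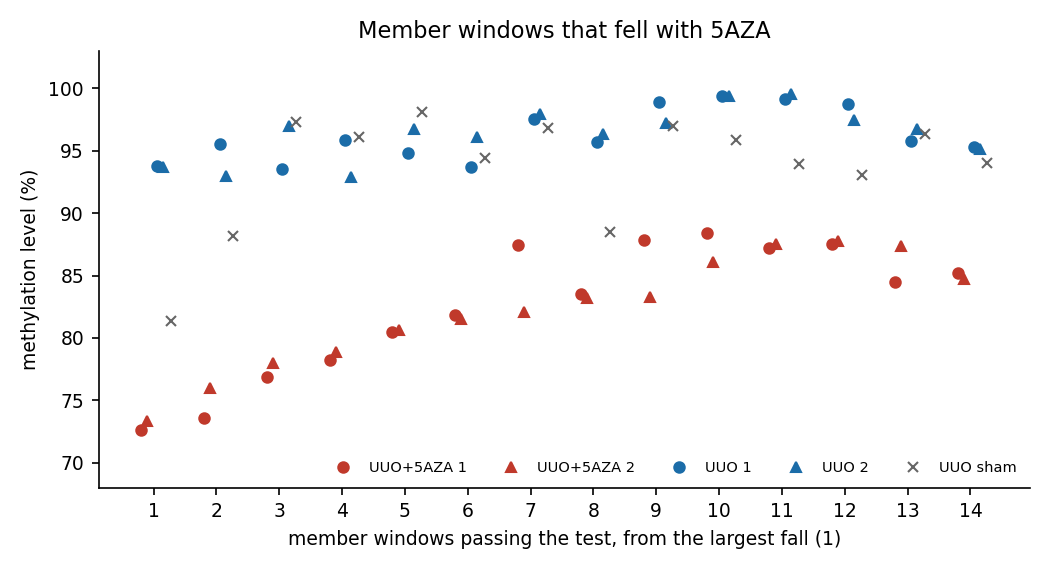
Methylation level in percent of the 14 members that passed the test of UUO+5AZA against UUO, ordered from the largest fall, in the 2 UUO+5AZA libraries (red), the 2 UUO libraries (blue) and the UUO sham (grey crosses). The axis starts at 68%; both red symbols lie below the blue and grey ones in each window, as the choice of windows makes likely.

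Among the members within 1 point of no difference, 5 were chosen for the most reads in their shallowest library. They had 345 to 985 reads per library, summed over positions. The window on chromosome 6 from 136010001 to 136011000 was at 92.1% and 92.9% in UUO+5AZA, 93.9% and 93.0% in UUO and 94.4% in the UUO sham. The window on chromosome 11 from 121491001 to 121492000 was at 96.9% and 95.1% in UUO+5AZA, 96.3% and 97.2% in UUO and 97.1% in the UUO sham. In both, the UUO+5AZA and UUO libraries overlapped or lay within 2 points of each other. The other 3 were on chromosome 4 from 83518001 to 83519000, chromosome 10 from 90439001 to 90440000 and chromosome 14 from 104035001 to 104036000, with differences of -0.71, -0.18 and -0.81 points. All 5 were chosen for a small difference, which is no test that they kept their level.

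With obstruction alone, the mean of members differed from the sham by less than the spread between libraries. The mean was 94.59% ± 0.10 (SD, n = 2) in UUO and 94.53% in the UUO sham, and UUO minus sham was 0.0613 points, less than the SD of the UUO pair. On single autosomes the difference ran between -0.162 and 0.203 points, above 0 on 14 and below 0 on 5. Interior positions of members gave 91.05% ± 0.17 (SD, n = 2) in UUO and 91.07% in the UUO sham. In CpG-poor windows at 70 to under 95% in the ischemia sham, by contrast, UUO was at 85.77% ± 0.09 (SD, n = 2) and the UUO sham at 84.75%, 1.02 points higher in UUO. At 30 to under 70% UUO was at 61.68% ± 0.02 (SD, n = 2) and the UUO sham at 58.32%, 3.36 points higher in UUO. Both classes are given over all positions. Their interior positions were 1.45 points higher in UUO at 70 to under 95% and 5.79 points higher at 30 to under 70%. With 1 sham library these differences between classes of window were not tested. No member was called in either direction by the moderated model with limma, against 0.016% of all windows higher and 0.00213% lower. At an unadjusted p below 0.05, 274 members were higher and 287 lower, or 1.51% and 1.58%, against 5.62% and 2.51% of all windows, and edgeR and limma on log2 ratios also called 0.

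With 5AZA the members were therefore below the sham by nearly as much as below UUO. UUO+5AZA averaged 91.14% ± 0.75 (SD, n = 2), against 94.53% in the UUO sham, which is -3.38 points. The first UUO+5AZA library was below the sham in 79.9% of members and the second in 85.5%. No member was called lower, against 0.00213% of all windows, while 3000 were lower at an unadjusted p below 0.05, or 16.6%, against 11.8% of all windows, and 13 were higher, or 0.0717%, against 0.705% of all windows. EdgeR and limma on log2 ratios called 0 here too. Both comparisons with 5AZA use the same UUO+5AZA libraries, so their values are not independent.

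Set against other windows with 3 to 5 positions, members in UUO+5AZA fell fewer points below UUO than those at 30 to under 95% in the ischemia sham. They fell more points below UUO than those under 30%. The 26730 windows with 3 to 5 positions at 70 to under 95% were at 81.38% ± 0.74 (SD, n = 2) in UUO+5AZA and 85.77% ± 0.09 (SD, n = 2) in UUO, a difference of -4.39 points. At 30 to under 70% the difference was -5.19 points, and under 30% it was -1.73 points, where UUO+5AZA was at 28.47% ± 0.33 and UUO at 30.20% ± 0.18 (SD, n = 2 each). These levels mix edge and interior positions. At interior positions alone the differences were -5.73 points in members, -7.01 at 70 to under 95%, -8.33 at 30 to under 70% and -2.39 under 30%. Under 30%, the interior was at 6.34% in UUO+5AZA and 8.73% in UUO. Only the class nearest in level was tested against the members. The level of members minus that of the windows at 70 to under 95% was 9.77 and 9.75 points in the UUO+5AZA libraries, against 8.81 and 8.83 points in the UUO libraries. This gap was 0.942 points wider with 5AZA, larger than the spread within either pair (p = 0.33, two-sided exact permutation test, the smallest possible). Against the UUO sham the 2 classes differed by nearly the same amount, with -3.38 points in members and -3.37 points in these windows. The windows at 30 to under 70% were -1.83 points from that sham and those under 30% were -0.431 points from it. Against the sham, members thus fell more than the windows at 30 to under 70%, the reverse of the order against UUO. With 1 sham library this was not tested. The ratio of unmethylated shares in UUO+5AZA over UUO was 1.64 in members, 1.31 in windows at 70 to under 95% and 1.14 in those at 30 to under 70%.

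Windows with 20 or more positions that were as highly methylated were rare. There were 71 on the autosomes, at 91.88% ± 0.28 (SD, n = 2) in UUO+5AZA and 94.58% ± 0.32 (SD, n = 2) in UUO, a difference of -2.70 points. The level of members minus theirs was -0.407 and -1.08 points in the UUO+5AZA libraries, against 0.154 and -0.148 points in the UUO libraries. The change of this gap with 5AZA was -0.745 points, beyond the spread within the UUO pair and of about the size of that within the UUO+5AZA pair (p = 0.33, two-sided exact permutation test). These values are over all positions. At interior positions alone, the 71 windows were at 89.26% ± 0.19 (SD, n = 2) in UUO+5AZA and 92.80% ± 0.24 (SD, n = 2) in UUO. That difference was -3.54 points, against -5.73 points at the interior positions of members. The 2 interior differences were not tested against each other.

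In the ischemia series the members differed by less than 1 point between times. The mean was 94.13% at 1 month and 93.75% at 1 week, 0.386 points higher at 1 month, and the sign was the same on 19 of 19 autosomes, which share the libraries. With 1 library each, this difference has no replicate check of its own, and it lay between the spread of the UUO pair, where UUO 1 minus UUO 2 was -0.145 points, and that of the UUO+5AZA pair, where library 2 minus library 1 was -1.07 points. No member was called between the times by the moderated model with limma, which lends single libraries the spread of the pairs, and none of all windows was. At an unadjusted p below 0.05, 393 members were higher at 1 month and 204 lower, or 2.17% and 1.13%, against 3.16% and 1.35% of all windows. EdgeR and limma on log2 ratios called 0. Below the ischemia sham lay the 1-month mean by 1.19 points and the 1-week mean by 1.58 points. The sham had to be high to make a window a member, and the UUO sham, which the rule did not use, was 94.53% against 95.33% in the ischemia sham, so these differences are not read as an effect of ischemia.

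Windows close to the limit of the rule behaved alike on both sides. Just inside, 1875 windows had an ischemia sham median at most 0.5 points above the limit and were at 89.74% in UUO+5AZA and 93.41% in UUO, a difference of -3.66 points. Just outside, 1333 windows with a median up to 0.5 points below it were at 89.13% in UUO+5AZA and 92.89% in UUO, a difference of -3.76 points.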

How the data were processed

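The authors deposited, for each library, a count of reads covering each CpG dinucleotide, a count of methylated reads among them, neither normalized, and their ratio as a fraction rounded to 3 decimals. The submitters' processing notes name Bowtie and build mm9; versions, methylation caller, filters and duplicate treatment are not stated there or in the labels. Tables were joined in pandas 2.3.3 and numpy 2.4.6 under Python 3.11.15. A window level is methylated over total reads, summed over its positions. Reads covering several positions count at each, and counting errors ignore PCR copies.

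Each window was tested over 8 libraries by a quasi-binomial logit model of group means in R 4.3.3; its Pearson dispersion, moderated by limma 3.58.1 (squeezeVar), was held at 1 or above. It had 2 residual degrees of freedom, 8.47 prior degrees of freedom and a prior dispersion of 1.36, and used a two-sided F test with Benjamini-Hochberg adjustment over 93730 windows. Group means were compared by exact permutation over libraries. The model was also run on simulated counts, drawn independently for each window and library at the prior dispersion. Such a run cannot show effects of PCR copies or of reads counted at several positions, and its values are not given here. Alternatives included edgeR 4.0.16 and limma on log2 ratios of both counts with a pseudocount of 1. Replicate numbers do not pair libraries by the labels, and with 2 pairs the data could not show it; same-numbered libraries deviated from their group means together at r = 0.013 over members. Members, classes and tests were chosen with earlier results of these data known. Named windows are the 10 largest falls among members that passed in the same direction in all 4 library pairs, and 5 deeply read members within 1 point of no difference. The annotation at hand is of another build, so genes and sequences were not used here.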

Additional observations from a re-analysis of the deposited data

How the results depend on the processing

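The mean fall with 5AZA in members, the wider fall at interior than at edge positions and the smaller fall than in windows at 70 to under 95% kept their direction under each alternative run. The mean fall lay between -5.73 points with fragment-edge positions left out and -3.16 points for members that were also at 0.95 or more in both ischemia libraries, and between -3.98 and -2.91 points with 1 library left out. The interior minus edge value lay between -4.33 and -2.93 points and the gap to windows at 70 to under 95% between 0.932 and 0.951 points with 1 library left out. An edge limit of 20%, added after seeing the data, gave -3.69 points.

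The number of members called lower with 5AZA, 14, depended on most settings. The share of all windows stands in brackets. It was 27 at a minimum of 5 points (0.559%) and 1 at 20 points (0.0427%), 8 at 20 reads per position (0.329%), 8 without positions above the 99th percentile of depth (0.24%), 0 with edge positions left out (also 0 of all windows, with 2282 members, or 18.6%, lower at an unadjusted p below 0.05, against 17.8% of all windows), 5 with edgeR (0.0523%), and 0 for limma applied to log2 ratios (0 of all windows; 6172 members lower at an unadjusted p below 0.05). It was 29 for members at 0.90 or more, 5 at 0.98 or more and 9 where both ischemia libraries met the rule, which are 0.0968%, 0.0722% and 0.101% of these members, against 0.356% of all windows. With 1 library left out it ran between 0 and 172 (between 0.0203% and 1.33%), and with a replicate block between same-numbered libraries it was 102 (1.26%), while the mean fall within same-numbered pairs was -3.44 points. With all libraries kept, members called lower in UUO+5AZA than in the UUO sham numbered 0 under each alternative, against 0 to 8 of all windows. Members called for UUO against its sham also numbered 0, against 0 to 15 of all windows higher and 0 to 3 lower. For ischemia at 1 month against 1 week, 0 members and 0 of all windows were called.

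The SD of the fall shared by both pairs was 1.14 points at 20 reads per position, 2.37 points with edge positions left out and 1.17 points where both ischemia libraries met the rule, against 1.34 points. The cause was not tested. Depth limits single windows, since counting alone gives an SD of 2.32 points, beside a mean fall of -3.44 points.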
